A study of Homo sapiens with 8 samples.

Results

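A set of 24103 accessible sites was found in all 4 peak lists made 3 h post UV and in 1 to 3 of the 4 peak lists of unchallenged cells, out of 547779 sites in all. To define the sites, the intervals of the 8 peak lists were merged, with touching intervals joined, and a list held a site if at least 1 bp of any of its intervals overlapped it. Members were thus chosen by measured presence or absence in the lists, and their presence, their percentiles and any contrast of UV with no UV at them are descriptions without a test. Of the members, 5178 were held by 1 unchallenged list, 7273 by 2 and 11652 by 3.

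The lists came from ATAC-seq, in which the transposase Tn5 cuts and tags accessible DNA. The cells were U2OS, a line derived from a human osteosarcoma. WT cells and cells with both copies of ASH1L disrupted by CRISPR/Cas9 (ASH1L-/-) were either left unchallenged (noUV) or irradiated with UV-C at a dose of 20 J per square metre and harvested after 3 h (UV), with 2 libraries in each of the 4 groups. ASH1L encodes a histone methyltransferase. The ASH1L-/- cells were grown from an isolated colony, so that the genotype and the clone cannot be told apart.

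Accessible sites away from promoters are often enhancers, stretches of DNA where transcription factors displace nucleosomes and act on genes at a distance. AP-1, a dimer of FOS and JUN proteins, binds many such sites, and its subunits are induced and phosphorylated when cells meet UV light or other stress. TEAD proteins, the DNA-binding partners of YAP, and RUNX factors, which direct bone formation, bind enhancers in mesenchymal and bone-derived cells. p53 is a transcription factor that is stabilised after DNA damage, and CTCF is a factor that organises chromatin loops.

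The sequences of 5 members illustrate the letters that recur in the results. They were chosen for these letters among the named members, after their values were seen, and are not typical of them. Of the 10 highest members 5 held AP-1 letters in such a window and 4 held none of the letters. Each sequence is 240 bases centred on the summit, the position of highest pileup, on the plus strand of hg38. Capitals mark the AP-1 letters TGANTCA, the TEAD letters GGAATG and the RUNX letters TGTGGT on either strand. The highest member of all (chr14:25887511-25887750, nearest to NOVA1), the highest held by 1 noUV list (chr3:63508427-63508666, in an intron of SYNPR) and a member in an intron of KIAA1217 (chr10:24456425-24456664) each held AP-1 letters. At the NOVA1 site these start 94 bp from the summit and run past the 200-base window in which shares of sites are counted below, so that this site is not among those counted. The last 2 differed between the genotypes post UV and lay near JARID2 (chr6:15138122-15138361) and CD1E (chr1:158371286-158371525).
NOVA1 site: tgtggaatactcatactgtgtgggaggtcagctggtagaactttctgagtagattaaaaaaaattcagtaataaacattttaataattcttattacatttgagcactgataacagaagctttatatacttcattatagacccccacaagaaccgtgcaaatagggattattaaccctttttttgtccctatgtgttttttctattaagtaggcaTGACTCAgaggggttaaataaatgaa
SYNPR site: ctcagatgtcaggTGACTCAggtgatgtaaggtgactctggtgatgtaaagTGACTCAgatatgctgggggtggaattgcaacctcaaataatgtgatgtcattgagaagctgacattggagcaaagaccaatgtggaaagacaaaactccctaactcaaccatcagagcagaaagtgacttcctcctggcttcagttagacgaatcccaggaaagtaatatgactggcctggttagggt
KIAA1217 site: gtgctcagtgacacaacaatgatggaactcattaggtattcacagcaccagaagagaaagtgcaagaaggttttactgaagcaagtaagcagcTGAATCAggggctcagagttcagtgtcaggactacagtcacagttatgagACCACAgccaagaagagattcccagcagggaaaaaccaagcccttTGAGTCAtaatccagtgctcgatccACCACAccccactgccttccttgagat
JARID2 site: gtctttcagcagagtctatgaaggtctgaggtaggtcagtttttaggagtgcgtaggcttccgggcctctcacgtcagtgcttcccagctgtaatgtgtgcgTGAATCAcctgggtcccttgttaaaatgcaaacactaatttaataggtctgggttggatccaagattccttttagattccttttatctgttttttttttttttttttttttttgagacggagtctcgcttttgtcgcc
CD1E site: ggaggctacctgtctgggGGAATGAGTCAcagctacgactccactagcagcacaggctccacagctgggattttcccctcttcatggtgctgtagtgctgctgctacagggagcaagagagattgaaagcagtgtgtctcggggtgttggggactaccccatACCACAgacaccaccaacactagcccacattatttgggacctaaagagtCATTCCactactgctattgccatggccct

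The 8 lists held between 158198 and 220783 regions. Depth, taken as the mean pileup over the genome solved from the listed fold enrichments and p-values, ran from 2.46 to 2.83 in the UV libraries and from 1.39 to 5.88 in the noUV libraries. Of 12 promoters of osteoblast and mesenchymal marker genes, 6 had a region in all 8 lists, RUNX2, VIM and SPARC among them, and 3 had none in any list, namely COL1A1, ALPL and IBSP. Among markers of other cell types, the promoters of EPCAM, MITF, GFAP, SYP and KDR also had a region in all 8 lists, whereas those of PTPRC, CDH1, ALB and PECAM1 had none in any.

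The unchallenged lists held very different shares of the members. Replicate 1 of the WT noUV cells held 48.3% of them and replicate 2 held 68.7%, while replicate 1 of the ASH1L-/- noUV cells held 65.8% and replicate 2 held 44.1%. The depths of these 4 libraries were 2.10, 1.74, 5.88 and 1.39, so the order of the shares was not the order of depth. The deepest library held fewer members than the shallower WT replicate, which held more than any other unchallenged list. Members made up between 13% and 16.1% of the regions of each UV list and between 7.11% and 9.42% of those of each noUV list.

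Where a member was held, it was an average region of its list. The within-file percentile ranks the fold enrichment of a region, its pileup over the local background, among all regions of the same list. The median percentile of the members was 56.4 and 58.0 in the WT UV lists and 56.4 and 63.3 in the ASH1L-/- UV lists. In the noUV lists it was 55.9 and 57.9 for WT and 60.4 and 50.2 for ASH1L-/-, over the members that each list held. The 2 ranges overlapped, as the plot of members by list shows. The regions themselves were wider post UV, with a median of 431 ± 34 bp at members (SD, n = 4) against 315.5 ± 37.8 bp without UV. Their median −log10 q was 8.95 ± 4.08 post UV and 3.36 ± 0.530 without UV. These list properties moved with the condition, and their part in the choice of members was not tested.

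**Figure D1:**
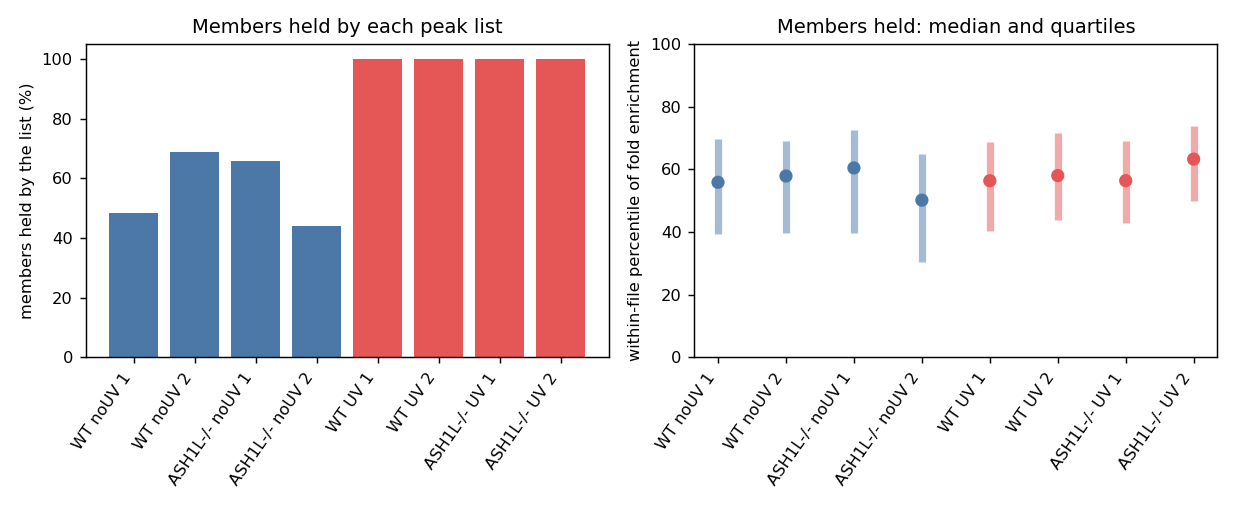
Left, share of the 24103 members held by each of the 8 lists, in %. Right, median (point) and quartiles (line) of the within-file percentile of fold enrichment at the members each list held. The noUV lists (blue) held between 44.1% and 68.7% of the members, and the UV lists (red) held all of them by the rule.

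Members held by more noUV lists ranked higher post UV. The median of the mean UV percentile rose from 48.0 at the 3757 sites held by 4 UV and no noUV lists, which lie just outside the rule, to 51.7, 55.2 and 60.4 at members held by 1, 2 and 3 noUV lists. It was 80.2 at the 60324 sites held by all 8 lists, which lie just outside the rule on the other side. The share ranked in the top quartile by each of the UV lists was 1.44% at the former, 2.76%, 4.40% and 8.40% in the 3 classes of members and 47.1% at the latter. In all, 1442 members (5.98%) ranked there in every UV list.

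Among the 14 possible combinations of noUV lists, the most frequent were all but WT replicate 1, with 4426 members, and all but ASH1L-/- replicate 2, with 4209. Only 380 members were held by WT replicate 1 and ASH1L-/- replicate 2 alone. In the 2 commonest combinations the missing list was one of the 2 lists that held the smallest shares of members. Those shares are made up of these same counts.

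Members were mostly distal. By the position of the summit, 48.4% were intergenic, 41.5% intronic, 4.42% exonic and 5.71% in promoters, within 1 kb of the TSS of a protein-coding gene. Sites held by all 8 lists were in promoters in 16.1% of cases. The mirror class of 5886 sites, held by all 4 noUV lists and by 1 to 3 UV lists, was in promoters in 2.89%, and all sites were in 3.51%. The median distance of a member from the nearest TSS was 49849 bp, against 34590.5 bp for sites held by all 8 lists and 64837.5 bp for the mirror class. Members had a median width of 572 bp and a GC content of 46.5% in the 200 bases around the summit, and sites held by all 8 lists had 749 bp and 50.0%. A site held by all 8 lists lay within 5 kb of 28.6% of the members.

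Post UV the highest members had fold enrichments above those in the noUV lists that held them. Median fold enrichments over the members each list held were 4.02 to 6.14 in UV lists and 2.78 to 3.73 in noUV lists. The median percentiles overlapped. At the intergenic site nearest to NOVA1, a neuronal splicing regulator whose TSS was 710402 bp away, the fold enrichment was 19.1 and 25.9 in the WT UV libraries and 18.3 and 16.8 in the ASH1L-/- UV libraries. Without UV it was 3.55 and 6.94 in WT and 3.06 in replicate 1 of ASH1L-/-, and replicate 2 had no region there. The within-file percentiles were between 98.3 and 99.9 with UV, and 60.8, 80.4 and 67.6 in these 3 noUV lists. All 4 UV values were above all 3 noUV values, a difference the selection favoured.

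An intronic member of CDK6, the kinase that drives cells out of G1, followed the same course. Its fold enrichment was 21.0 and 19.6 in WT and 17.6 and 16.6 in ASH1L-/- post UV, and 6.83, 3.81 and 3.49 in the 3 noUV lists that held it. A further 7 of the 10 highest members lay nearest to ANKRD50, SCN3B, SLF2, COP1, HS3ST3A1, CDH2 and ARSJ, between 17097 and 1324203 bp from the TSS. SCN3B encodes a sodium channel subunit, COP1 a ubiquitin ligase and CDH2 N-cadherin. At all 10 sites the lowest UV value was above the highest noUV value, as the plot of 9 of them shows. This separation was found at 38.8% of all members and at 26.3% of all sites held by the 4 UV lists and at least 1 noUV list, and the choice of members with high UV values favoured it. None of the 10 was in a promoter, and none was called different between the genotypes.

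**Figure D2:**
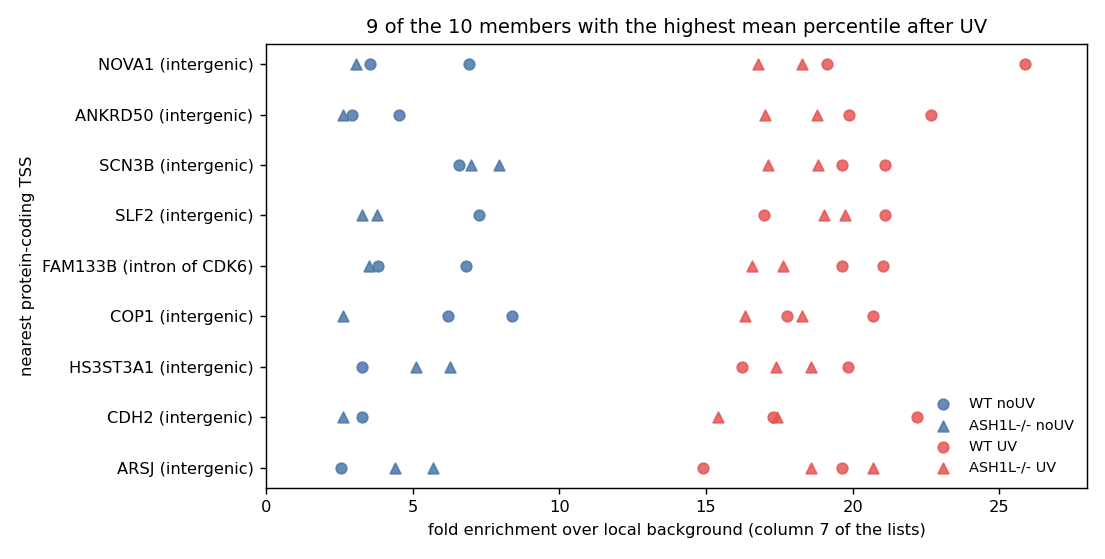
Fold enrichment over local background at 9 of the 10 members with the highest mean percentile post UV, named by the nearest protein-coding TSS, in the WT (circles) and ASH1L-/- (triangles) libraries with UV (red) and without (blue). A missing blue point is a list without a region, and every red point lies to the right of every blue point of the same site.

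Members held by a single noUV list reached similar levels. The intronic site of SYNPR, which encodes a synaptic vesicle protein, had 10.8 and 18.9 in WT and 16.8 and 15.5 in ASH1L-/- post UV, and 2.92 in its only noUV list, WT replicate 2. An intergenic site 360965 bp from BCL2L11, the gene of the pro-apoptotic protein BIM, had 14.1 and 15.9 in WT and 14.6 and 14.8 in ASH1L-/- post UV. It had 2.62 in replicate 1 of the ASH1L-/- noUV cells and no region in the other 3 lists. The remaining 3 of the 5 highest members of this class lay in an intron of LRRC4C and nearest to ZNF81 and VRK1, with mean UV percentiles of 95.3, 95.3 and 95.0.

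The highest promoter members ranked lower than the distal ones. The site 979 bp from the TSS of IQSEC3, a neuronal guanine nucleotide exchange factor, had a mean UV percentile of 96.99, and the next 9 had between 81.7 and 88.4. Among these were the promoters of SLC51B, OR8D1, MAPK3, OR7D2, CCZ1, RP1L1, PTGFR and PCDHA1. At the site 967 bp from the TSS of MAPK3, which encodes the kinase ERK1, the fold enrichment was 10.5 and 14.7 in WT UV, 6.85 and 9.14 in ASH1L-/- UV, 6.81 and 9.91 in WT noUV and 2.47 in one ASH1L-/- noUV list. There the UV and noUV values overlapped. OR8D1 and OR7D2 are olfactory receptor genes, RP1L1 a photoreceptor gene and PCDHA1 a protocadherin gene, all of them known for restricted expression.

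In all, 1413 of 19970 protein-coding genes (7.08%) had a member in the promoter, and 503 of these also had a promoter site held by all 8 lists. Among 416 olfactory receptor genes 11 had a promoter member (2.64%) and 10 had a promoter site held by all 8 lists. Of 65 protocadherin genes, 8 had a promoter member (12.3%). Zinc finger genes with a ZNF symbol had a promoter site held by all 8 lists in 76.1% of cases and a promoter member in 5.44%.

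AP-1 letters were frequent at members. In the 200 bases around the summit, 6397 members (26.5%) held TGANTCA on either strand, against 11.1% of all sites, 23% of sites held by all 8 lists and 11.7% of the mirror class. Among members the share fell from 29.5% to 26.9% and 25% as the number of noUV lists that held the site went from 1 to 3. It was 32.9% at sites held by 4 UV and no noUV lists. Away from promoters it was 27.8% at members, 26.6% at sites held by all 8 lists and 11.8% in the mirror class, so that members and sites held by all 8 lists were closer there than over all positions. The share depended on the window, at 9.71% of members in 100 bases and 53% in 400 bases. Over all positions it was also higher in both windows at members than at sites held by all 8 lists (9.37% and 43.4%). In the mirror class it was 4.37% and 23.9%. The shares in these windows were not split by position. Whether members also exceed sites held by all 8 lists away from promoters was therefore not tested in them.

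AP-1 letters were more frequent at members of higher percentile. From percentiles up to 20 to those above 80, in bins of 20, the share with AP-1 letters went from 15.6% to 45.3% at members, 1818 of which lay in the highest bin. At sites held by all 8 lists it went from 9.60% to 28.6%. In the mirror class it was 17.4% in the lowest bin, which held 109 sites, and between 10.4% and 12.1% in the others. For TEAD letters the share from the lowest to the highest bin went from 12.8% to 15.4% at members and from 22.7% to 17.7% at sites held by all 8 lists. In the mirror class, ranked by its percentiles in the noUV lists, it went from 15.6% to 36.1%.

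**Figure D3:**
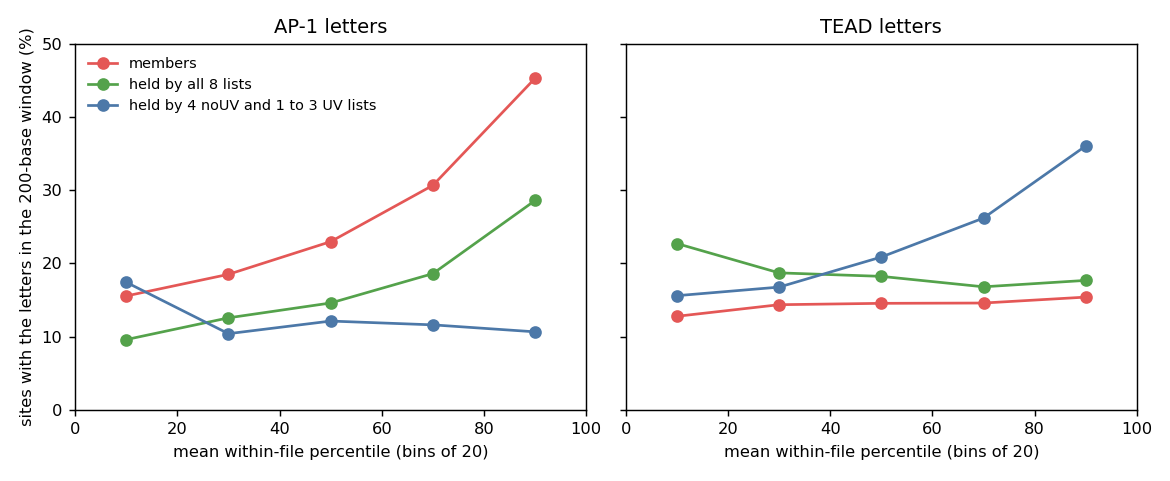
Share of sites with AP-1 letters (left) or TEAD letters (right) in the 200-base window, in %, by the mean within-file percentile in bins of 20, taken over the UV lists for members and sites held by all 8 lists and over the noUV lists for the mirror class. AP-1 reached 45.3% at the highest members, and TEAD reached 36.1% at the highest mirror sites.

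The letters were less dense at the summit than in its flanks. Matches to AP-1 at members were densest 100 to 125 bp to either side, at 2.92 and 2.80 per kb, and fell to 0.999 and 1.05 per kb in the 25 bp on each side of the summit, which was still above the 0.249 to 0.342 per kb found 300 to 500 bp away. At sites held by all 8 lists the flanks had 2.17 and 2.18 per kb and the centre 1.01 on both sides. The mirror class had 0.829 and 1.01 per kb in the same flanking bins. The 2 flanking maxima were thus shared by all 3 classes and were highest at members.

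**Figure D4:**
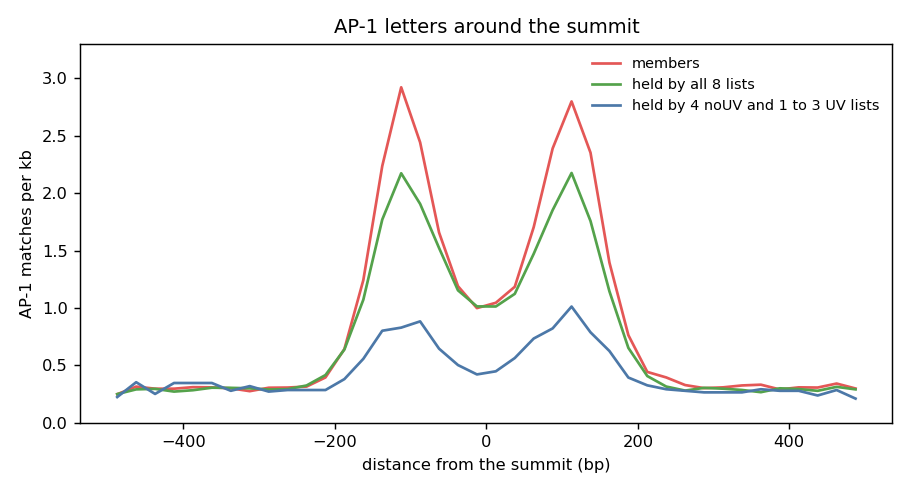
Matches to the AP-1 letters per kb in bins of 25 bp, by distance from the summit in bp, at members (red), sites held by all 8 lists (green) and sites held by 4 noUV and 1 to 3 UV lists (blue). All 3 curves peak about 100 bp from the summit, with members highest at 2.92 per kb.

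TEAD and RUNX letters were less frequent at members than in the mirror class. TEAD letters were found at 14.6% of members, 17.5% of sites held by all 8 lists, 23.3% of the mirror class and 13.1% of all sites. RUNX letters were found at 16.3%, 16.9%, 23.7% and 16.2% in the same order. Letters of promoter-bound factors differed in this respect. The ETS letters CCGGAAG were at 1.10% of members and 2.89% of sites held by all 8 lists, and the SP/KLF letters GGGCGGG at 3.76% and 8.27%, whereas the NFY letters CCAAT were at 24.4% of members and 24% of sites held by all 8 lists. The CTCF motif was at 0.921% of members, 1.12% of sites held by all 8 lists and 0.320% of all sites.

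A p53 motif was found at 72 members (0.299%), against 0.149% of all sites, 0.136% of sites held by all 8 lists and 0.136% of the mirror class. It was at 29 of the 3757 sites held by 4 UV and no noUV lists (0.772%). A member with this motif lay in an annotated intron of CCNG2, which encodes cyclin G2, 175841 bp from the TSS. It had fold enrichments of 10.8 and 14.8 in WT UV and 12.5 and 10.8 in ASH1L-/- UV. Its only noUV list was ASH1L-/- replicate 2, at 3.76. The highest p53-motif member, 6136 bp from the TSS of ENKUR, had 11.9, 13.6, 15.2 and 14.3 in the UV lists and between 5.15 and 6.79 in the 3 noUV lists that held it. These 2 sites were chosen after their values were seen.

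Long genes held the most members. RBFOX1, a neuronal splicing regulator, held 31, PTPRN2 held 19, AUTS2 and CAMTA1 17 each, ASIC2 and RUNX1 15 each, ALK and SYN3 14 each and COL22A1 and DLG2 13 each. Members were 40.8% of the sites that all 4 UV lists held in RBFOX1 and 19% in RUNX1, against 25% over all protein-coding genes. Among genes over 50 kb with at least 5 members, the density was highest in SUN2, a nuclear envelope gene, with 9.70 per 100 kb, and the next highest included TMEM132E, TNIP1, SPIN1, SPG7, SLC35D2, RASGEF1A, HNF4A and DENND3. HNF4A, a liver factor, held 5 members, and its promoter had a region in 2 of the 8 lists.

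By position, members were 23% to 31.5% of the UV-held sites of each chromosome, lowest on chromosome 19 and highest on chromosome 13. The 5 windows of 1 Mb with the highest share were chr15:79000001-80000000 (44.4%), chr15:80000001-81000000 (43.1%), chr8:138000001-139000000 (43.1%), chr2:88000001-89000000 (40.4%) and chr2:54000001-55000000 (40%). The median over 501 windows was 24.3%. The first of these windows holds MINAR1, and the third holds COL22A1.

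Over all protein-coding genes 35.3% had a member, members were 25% of the UV-held sites, and the median gene length was 28.5 kb. In the list of 33 AP-1 family and other immediate-early genes, whose median length was 8.19 kb, 6 genes had a member (18.2%) and 7 of the 63 UV-held sites were members (11.1%). None of the 7 was in a promoter, and 23 of the genes had a promoter site held by all 8 lists. ATF3 and FOSL2 had 1 member each and DUSP10 had 2. The ribosomal protein genes, with a median length of 6.09 kb, had 3 members among 45 sites (6.67%), with a promoter site held by all 8 lists at 32 of 34 genes.

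Of 34 nucleotide excision repair genes, 14 had a member (41.2%, against 35.3% of all protein-coding genes), and members were 16 of their 77 UV-held sites (20.8%, against 25%). RAD23B, the partner of the damage sensor XPC, had a promoter member with fold enrichments of 4.3, 5.40, 2.71 and 3.82 post UV and 2.66, 4.67 and 2.64 in 3 noUV lists. PCNA, the sliding clamp of gap filling, had one with 3.52, 4.52, 3.39 and 3.25 post UV and 2.46 in 1 noUV list. At RAD23B the UV and noUV values overlapped, and at PCNA every UV value was above the only noUV value. Such a separation was found at 58.6% of members held by 1 noUV list. The 2 sites lay 989 and 991 bp from the TSS of RAD23B and PCNA. Both promoters also had a site held by all 8 lists.

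The p53 target genes had 13 members among 67 UV-held sites (19.4%), with promoter members at SESN2 and TIGAR. At TIGAR, which encodes a regulator of glycolysis, the fold enrichment was 4.92 and 9.03 in WT UV and 5.22 and 6.09 in ASH1L-/- UV, and between 3.64 and 4.32 in 3 noUV lists. Its within-file percentiles overlapped, at 65.1, 72.7, 63.8 and 73.9 in the UV lists and 70.5, 57.9 and 75.3 in the noUV lists. At SESN2 the percentiles were 18.6, 10.4, 11.6 and 45.0 post UV and 50.6 in its only noUV list. The TEAD-YAP list had 30 members among 165 sites (18.2%), 5 of them in GLIS3, and the actin and adhesion list had 65 among 284 (22.9%), 10 of them in TLN2.

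The extracellular matrix and osteoblast list had 62 members among 219 sites (28.3%), of which RUNX1 held 15 and COL4A2, a basement membrane collagen gene, 11. At the promoter of SPP1, which encodes the bone matrix protein osteopontin, the fold enrichment was 4.36 and 7.0 in WT UV, 2.66 and 4.05 in ASH1L-/- UV, 4.04 and 5.07 in WT noUV and 3.25 in one ASH1L-/- noUV list. The list of chromatin methyltransferase and FACT genes had 11 among 38 sites (28.9%), 3 of them in SETD2 and 1 in ASH1L.

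The rule treated both genotypes alike and did not use the fold enrichments within the UV lists. It did require a region in all 4 UV lists and absence from at least 1 noUV list. Sites that differ between the genotypes without UV could thus enter by the rule, so the comparison of members is not independent of their choice. The fold enrichments of the 88184 sites held by all 4 UV lists were compared between ASH1L-/- and WT cells with limma, on quantile-normalised log2 values, and a site was called at a Benjamini-Hochberg adjusted p below 0.05. Of all sites 1.47% were called, 0.723% higher and 0.745% lower in ASH1L-/- cells. Of the members 617 were called (2.56%), 301 higher and 316 lower. The median log2 difference, ASH1L-/- minus WT, was -0.03 over members and 0.01 over all sites, and the median size of the difference was 0.29 and 0.20. The p-values measure the spread between these 4 libraries only.

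The number of called members rested on the settings and on single libraries. It was 0 without quantile normalisation, where 2238 of 24103 members and 5059 of 88184 sites had an unadjusted limma p below 0.05. On the logit of the percentile it was 64, or 0.266% of members against 0.128% of all sites. No member was called without either replicate of the WT UV cells in turn. Fewer were called than in the main fit without either replicate of the ASH1L-/- UV cells. Each of these fits leaves 1 library in a genotype. The calls at single sites below are therefore those of the quantile-normalised fit of all 4 libraries. All 16 sites named below lost their call without quantile normalisation.

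Genotype differences post UV went the same way as presence without UV. Of the 1735 members held by both WT noUV lists and by neither ASH1L-/- noUV list, 83 were called lower and 0 higher in ASH1L-/- cells post UV, with a median log2 difference of -0.28. Of the 1201 members held by both ASH1L-/- noUV lists and by neither WT noUV list, 72 were called higher and 0 lower, with a median of 0.24. At an unadjusted p below 0.05 limma placed 407 members of the first set lower and 29 higher, and 282 of the second higher and 41 lower. Of all 88184 sites 10866 had such a p. With the replicate number as a block, 175 of the first set were called lower and 3 higher, and 135 of the second higher and 5 lower. That fit called more sites of every kind, at 4.06% of all sites against 1.47% in the main fit. In the first set the median percentile was 61.0 and 64.5 in the WT UV lists and 52.4 and 61.2 in the ASH1L-/- UV lists. In the second it was 49.2 and 49.3 in WT and 59.4 and 65.0 in ASH1L-/-. The medians of the 2 genotypes did not overlap in the second set and did in the first, where replicate 2 of the ASH1L-/- UV cells lay above replicate 1 of the WT UV cells.

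The medians of both sets kept their sign in each of these settings. Relative to the median of all sites they were -0.29 and 0.23, and -0.28 and 0.25 without quantile normalisation. Leaving out each UV library in turn gave between -0.35 and -0.19 for the first set and between 0.22 and 0.25 for the second. Without chromosomes 4 and 13, which hold blocks with an excess of regions in one genotype, 76 of 1572 and 65 of 1102 members of the sets were called, with medians of -0.27 and 0.22 relative to all sites. Those counts are 4.83% and 5.90% of the sets, against 1.41% of all sites on the same chromosomes. Since each genotype is 1 line, a genotype effect and a difference between clones cannot be told apart.

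**Figure D5:**
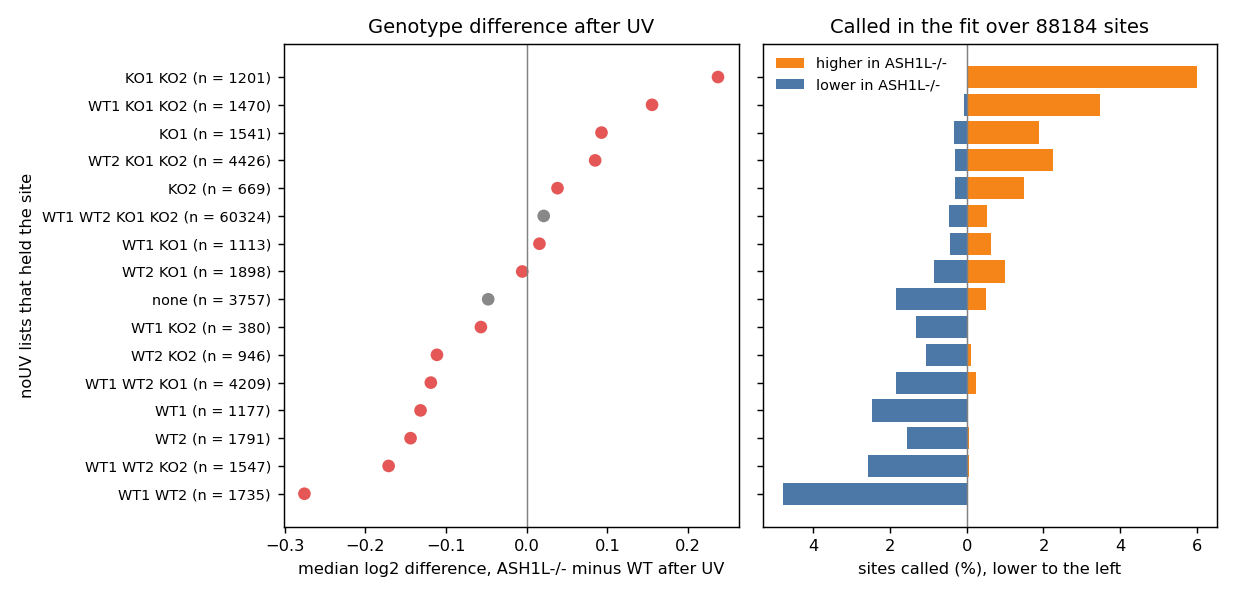
Left, median log2 difference (ASH1L-/- minus WT, UV lists) of sites by the noUV lists that held them, where KO1 and KO2 are the ASH1L-/- replicates, n is the number of sites, members are red, and the sites held by none or all 4 noUV lists are grey. Right, share of each set called higher or lower, in %. The medians run from -0.28 at sites held by WT1 and WT2 to 0.24 at sites held by KO1 and KO2.

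The smallest adjusted p of a member higher in ASH1L-/- cells was in an exon of MINAR1, with fold enrichments of 20.2 and 19.2 in the ASH1L-/- UV libraries and 5.18 and 5.17 in WT UV. Without UV it was 7.27 and 6.47 in ASH1L-/- and 4.38 in one WT list. The log2 difference was 2.0 ± 0.23 (SE, limma adjusted p = 7.0e-05). The intronic site of CBLB, a ubiquitin ligase gene, had 18.7 and 16.8 in ASH1L-/- UV and 5.10 and 7.89 in WT UV. A site nearest to TLL1, which encodes a tolloid metalloprotease, had 14.6 and 17.1 in ASH1L-/- UV, 3.97 and 4.08 in WT UV, 16.6 in both ASH1L-/- noUV lists and 2.56 in one WT noUV list.

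Sites near JARID2, a cofactor of the Polycomb complex PRC2, near ALCAM, a cell adhesion gene, and near NPFFR2, CDCA7 and SUCLG1 completed the 8 with the smallest adjusted p in this direction. The JARID2 site, held by both ASH1L-/- noUV lists and neither WT list, had 10.5 and 10.0 in ASH1L-/- UV and 2.55 and 2.26 in WT UV. Its within-file percentiles were 87.1 and 88.2 in ASH1L-/- UV and 17.1 and 3.63 in WT UV, where its regions were thus among the weaker ones listed. At all 8 sites both ASH1L-/- UV values were above both WT UV values, which the choice by adjusted p favoured. This order was found at 12.2% of all members and 8.92% of all sites held by the 4 UV lists. The reverse order, both ASH1L-/- values below both WT values, was commoner, at 25% and 23.97%. These shares rest on fold enrichments before quantile normalisation, whose median over members was highest in replicate 2 of the WT UV cells. It was 6.14 there and 4.02 to 4.55 in the other UV lists. On the within-file percentile the commoner order was the other one. Both ASH1L-/- percentiles were above both WT percentiles at 25.9% of members and 26.3% of all sites, and below them at 18.3% and 14.1%. The log2 differences of the 8 sites were between 1.60 and 2.2.

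In the other direction, the intronic site of NCOA2, a nuclear receptor coactivator gene, had 12.5 and 23.4 in WT UV and 2.61 and 3.41 in ASH1L-/- UV. Its log2 difference was -2.47 ± 0.29 (SE, limma adjusted p = 7.0e-05). The intronic site of COL12A1, the gene of collagen XII, had 10.2 and 16.1 in WT UV and 2.61 and 3.15 in ASH1L-/- UV. Without UV it had 6.83 and 10.3 in WT and 2.62 in one ASH1L-/- list.

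The promoter site of FAAH2, a fatty acid amide hydrolase gene on chromosome X, had 14.3 and 17.6 in WT UV and 3.77 and 4.98 in ASH1L-/- UV, and both WT noUV lists and neither ASH1L-/- noUV list held it. The site near CD1E, whose sequence holds overlapping TEAD and AP-1 letters, had 10.2 and 17.5 in WT UV and 2.90 and 2.62 in ASH1L-/- UV. Introns of PTAFR, ANKRD12, AGBL2 and TBCE held the other 4. The log2 differences of these 8 sites were between -2.47 and -1.71. At all 8 both ASH1L-/- UV values were below both WT UV values, the order found at 25% of all members by fold enrichment and 18.3% by percentile. All 16 sites kept their direction under every setting of the fit in which they were tested. With a q-value below 0.05 required in all 4 UV lists, 13 of them were tested, and the sites of JARID2, NCOA2 and COL12A1 were not.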

How the data were processed

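ATAC-seq peak lists of 8 libraries were analysed, 2 from each of 4 groups taken from the sample titles. Per the study's methods and processing notes, the authors trimmed reads with cutadapt 1.9.1, aligned them with Bowtie2 2.4.5 to hg38 without chromosome Y, filtered them with SAMtools 1.7, bedtools 2.29.2 and Picard, and called peaks in each library with MACS2 2.2.7.1. The deposited lists give interval positions, a fold enrichment (ratio of the summit's pileup to the local background), MACS2's −log10 p-value with its −log10 q-value, and a score by the authors, which was not used. Peaks with p-values up to a limit of 0.01 are listed. No value was normalised between libraries by the authors, and replicates were not pooled.

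Distinct intervals were taken as regions with the highest values of their records, and percentiles were computed over the regions of each list. Merging gave 547779 sites, identical to those of bedtools, and no interval ended past a chromosome of the reference hg38. Sites were placed by the summit of highest percentile on GENCODE release 44, with 1 TSS per protein-coding gene. Letters were searched on both strands (CTCF by its motif, p53 by its motif with at most 2 mismatches). Depth was the percentile 0.1 of the backgrounds that solve the MACS2 equations. No read counts are in the lists, so counting intervals were not computed, and Wilson 95% intervals of shares serve only to compare settings.

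The genotype test used limma 3.58.1 in R 4.3.3 (lmFit, eBayes with trend, two-sided). On 5 simulated sets of 88184 sites with 200 changed by 1.5 or 2 (log2), 76.4% and 98.2% were recovered and 4.19% of calls were unchanged sites. The changes were split over both genotypes and put only at sites where they stayed inside the range of the data. Without quantile normalisation 76.4% and 98.2% were also recovered, whereas the real data then gave 0 calls. The simulated noise was independent between sites, so differences between whole libraries were not simulated. An earlier simulation, with changes of 2 or 3 put into one genotype at any site, gave 14.8% of calls at unchanged sites with quantile normalisation and 4.28% without.

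The members and lists were chosen with earlier results of these data known. Named sites were the 10 highest members by mean UV percentile, the 5 highest held by 1, 2 and 3 noUV lists, the 10 highest in promoters, the 8 with the smallest adjusted p in each direction, the genes with the most and the densest members, the windows with the highest share, and genes of the lists. Some of the sites and genes so chosen are not reported here. Python 3.11.15, numpy 2.4.6, pandas 2.3.3 and scipy 1.17.1 were used. Alternatives changed the q-value threshold, overlap, promoter, window, scaling, measure, pairing and libraries. Those with every transcript TSS and without chromosomes 4 and 13, and the pattern medians and motif ranks with their alternatives, were added after seeing the data.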

Additional observations from a re-analysis of the deposited data

How the results depend on the processing

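The number of members stayed between 22712 and 23703 with q-value thresholds or 50% coverage, and between 18531 and 31966 when each library was left out. The promoter share was 8.57% within 2 kb, 11.8% with every transcript TSS, 6.30% at a q-value of 0.01 or below, 9.38% with 50% coverage, and 5.35% to 6.09% without each library. The AP-1 share was 9.71% in 100 bases, 53% in 400 bases, and 24.1% to 26.8% without each library. The median UV percentile was 62.9 at a q-value of 0.01 or below and 54.1 to 57.3 without each library. Members called between the genotypes numbered 0 without quantile normalisation and 64 on the logit of the percentile, where the pattern medians were -0.64 and 0.62 (logit units, relative to all sites). They ranged from 0 to 212 without each UV library, where the medians ranged from -0.35 to -0.19 and from 0.22 to 0.25. The cause of these changes was not tested. With the replicate block, 1566 members were called (6.50%, against 4.06% of all sites). The 2 pairs share only a number (r = 0.137 between the deviations of same-numbered UV libraries over 88184 sites), so the block is not taken as a pairing. The 16 named genotype differences kept their direction throughout, and all 16 lost significance without quantile normalisation and without either WT UV replicate. Depth cannot be separated from presence in the noUV lists, where a missing region means only that none passed the peak caller's threshold.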

Other observations

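AP-1 letters were also ranked at sites outside the members, the distal sites held by all 8 lists, in a comparison added after seeing the data. At 13460 sites with AP-1 letters the median within-file percentile exceeded that of 37167 sites without them by 7.54 ± 1.45 points (SD, n = 4) in the UV lists and by 3.22 ± 0.468 points in the noUV lists. The UV value was higher in 4 of 4 libraries (difference of 4.32 points, p = 0.0286, adjusted p = 0.0429 over 3 motifs, exact permutation test, two-sided). For RUNX letters the excess was 0.619 ± 0.292 points with UV and 2.04 ± 0.777 without (difference of -1.42, p = 0.0286, adjusted p = 0.0429, exact permutation). For TEAD letters it was 0.951 ± 0.869 and 2.37 ± 0.532 points (difference of -1.42, p = 0.0571, adjusted p = 0.0571, exact permutation). The smallest p this design allows is 0.0286 when labels are exchanged over all 8 libraries. When they were exchanged only within each genotype (36 arrangements), the exact permutation p was 0.0556 for each of the 3 motifs, the smallest such a test can give, so that the AP-1 and RUNX differences passed the threshold only when genotype was ignored. Without any one library the smallest is 0.0571, and the AP-1 difference then lay between 3.73 and 4.91 points. UV lists also had wider regions and lower q-values, and the part of these properties in the difference was not tested.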
